A study of Arabidopsis thaliana with 9 samples.

Results

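The Aux/IAA repressor genes and the auxin-conjugating genes GH3.1 to GH3.6 of Arabidopsis thaliana were examined in root tips in which the transcription factor gene ERF115 was overexpressed or disrupted. They were chosen by locus, as the probe sets that the array's probe annotation maps to one of 35 listed loci, 29 Aux/IAA and 6 GH3. Probe sets of 10 loci were found, 1 each, among 22746 tested: IAA18 (AT1G51950), IAA20 (AT2G46990), IAA29 (AT4G32280), IAA30 (AT3G62100), IAA31 (AT3G17600), IAA33 (AT5G57420) and IAA34 (AT1G15050) of the Aux/IAA family, and GH3.1 (AT2G14960), GH3.3 (AT2G23170) and GH3.5 (AT4G27260, listed as WES1) of the GH3 family. The other 25 loci, 22 Aux/IAA and 3 GH3, were not analysed here, so what follows covers a minority of either listed set and says nothing of the family as a whole. No probe set of several genes touched a listed locus, and none of the 10 carries a suffix that marks shared probes.

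The arrays were 9 in number, 3 per genotype, each made from root tips 3 mm long of seedlings 5 days old in the Col-0 background. ERF115OE carries the ERF115 open reading frame under the constitutive p35S promoter, so the transgene is not limited to the cells that normally express the gene. The erf115ko line is the T-DNA insertion mutant SALK_021981, which stands for a single allele, and Col-0 is the untransformed wild type used as control. All seedlings grew on nylon meshes over full-strength medium in long days without treatment, and the tips were cut with scalpels and frozen. The labels do not say whether replicates were grown as separate cultures, so the spread behind the p-values may be no more than technical.

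Auxin acts by removing repressors. Aux/IAA proteins hold the auxin response factors (ARFs) inactive on auxin-responsive genes. The hormone glues them to TIR1/AFB F-box receptors, and their degradation frees the ARFs. Many Aux/IAA genes and the group II GH3 genes are themselves targets of ARFs. They rise quickly when auxin rises, closing a feedback loop in which GH3 enzymes also join indole-3-acetic acid to amino acids. In the root tip an auxin maximum around the quiescent centre guides stem cell maintenance, and ERF115 is known as a driver of quiescent centre division and of stem cell replacement after damage.

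None of the 10 genes passed the test in any of the 3 comparisons between genotypes. Every log2 fold change lay between -0.18 and 0.41, and the lowest adjusted p was 0.36. By the same test 5.46% of all probe sets were called between ERF115OE and Col-0, 0.0132% between erf115ko and Col-0 and 3.68% between ERF115OE and erf115ko. These p-values come from limma with Benjamini-Hochberg adjustment over all probe sets, at a threshold of 0.05. At an unadjusted p under 0.05, too, 0 of the 10 stood out in each comparison, where 18.2%, 4.54% and 15.6% of all probe sets did. A count of 0 of 10 is read only against these shares, not as a property of auxin response genes. In whole tips, fewer cells of a type and less RNA per cell cannot be told apart.

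**Figure D1:**
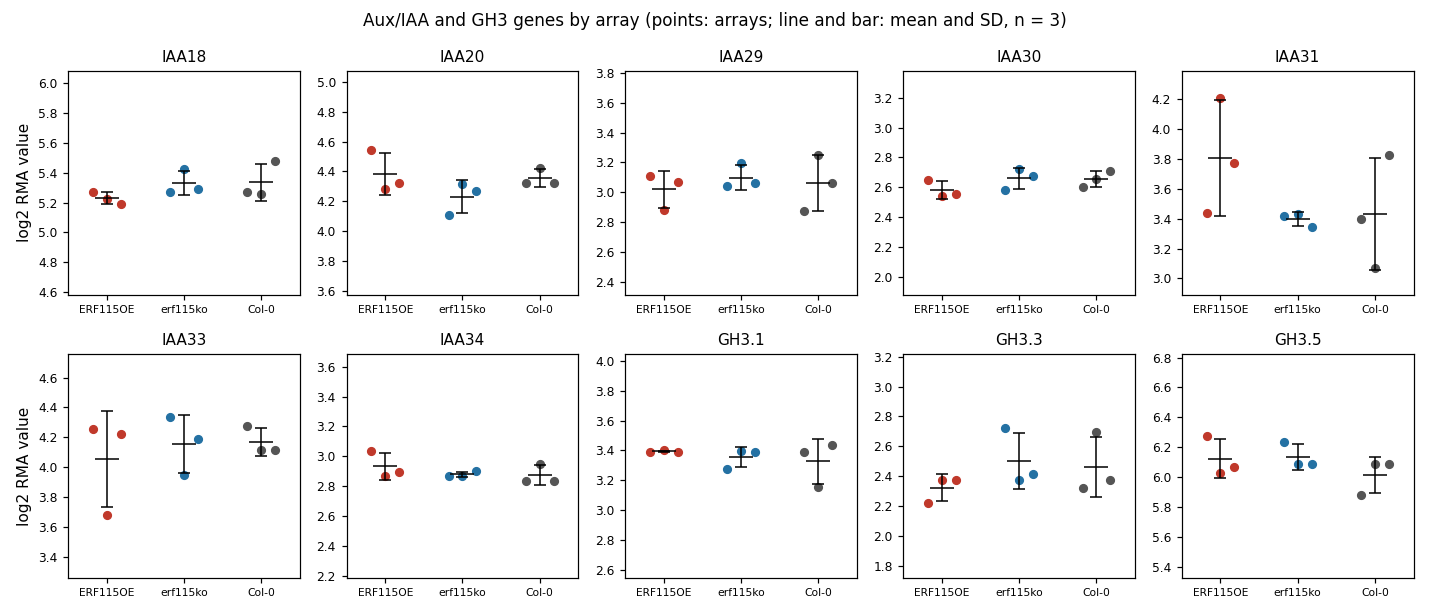
Values of the 10 Aux/IAA and GH3 genes on each array (log2 RMA value, every axis spanning 1.5 log2 units), with points for arrays and a line and bar for the mean and SD of the 3 arrays of ERF115OE, erf115ko and Col-0. The groups overlap in nearly every panel, and IAA31 and IAA33 are the most scattered.

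IAA18 and IAA29 are the members measured here that carry the degron recognised by the auxin receptors in its usual form. IAA18 is known from gain-of-function mutants that impair root formation. Its values were 5.27, 5.23 and 5.19 in ERF115OE, 5.27, 5.42 and 5.29 in erf115ko, and 5.27, 5.26 and 5.48 in Col-0 (log2 RMA values, replicates 1 to 3). Of the ERF115OE arrays, 2 lay below all arrays of the other genotypes, and replicate 1 shared its value with replicate 1 of both. ERF115OE over Col-0 gave a log2 fold change of -0.11 (SE 0.078, adjusted p = 0.52), and erf115ko over Col-0 one of -0.0058 (SE 0.078).

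IAA29, best known from shoots as a gene that responds to shade, had 3.11, 2.88 and 3.07 in ERF115OE. It had 3.04, 3.19 and 3.06 in erf115ko, and 2.88, 3.25 and 3.06 in Col-0. The Col-0 arrays alone spanned 0.38, more than the distance between any pair of genotype means. Against Col-0 the log2 fold change was -0.043 in ERF115OE (adjusted p = 0.87) and 0.035 in erf115ko (adjusted p = 0.9996), with an SE of 0.10 for both.

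The other 5 Aux/IAA genes encode non-canonical proteins. IAA20, IAA30, IAA33 and IAA34 lack the degron, and that of IAA31 is only partly conserved, so these proteins are not, or only slowly, degraded in response to auxin. IAA20 and IAA30 are known targets of the response factor MONOPTEROS in vascular cells. IAA20 had 4.54, 4.28 and 4.32 in ERF115OE, 4.11, 4.32 and 4.27 in erf115ko, and 4.32, 4.42 and 4.32 in Col-0. All 3 erf115ko arrays lay below all 3 Col-0 arrays, but the gap between the groups was 0.0045. Groups that do not overlap, with erf115ko lower, occurred in 3.96% of all probe sets. The difference between erf115ko and Col-0 was -0.13 on the log2 scale (SE 0.087, adjusted p = 0.9996), that between ERF115OE and erf115ko 0.15 (SE 0.087, adjusted p = 0.45), and that between ERF115OE and Col-0 0.026 (SE 0.087, adjusted p = 0.91).

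IAA30 had the smallest SD within genotypes of the 10, but its RMA values were low, where small differences are compressed. Its values were 2.65, 2.54 and 2.56 in ERF115OE, 2.58, 2.72 and 2.68 in erf115ko, and 2.60, 2.66 and 2.71 in Col-0. ERF115OE overlapped both other genotypes, with a log2 fold change over Col-0 of -0.072 (SE 0.067, adjusted p = 0.62). The 95% interval of that difference ran from -0.22 to 0.077.

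IAA31, whose overexpression is known to disturb auxin responses in seedlings much as that of IAA20 and IAA30 does, showed the largest differences. Its values were 3.44, 4.21 and 3.77 in ERF115OE, 3.42, 3.43 and 3.34 in erf115ko, and 3.4, 3.07 and 3.83 in Col-0. The ERF115OE and Col-0 arrays were spread widely and overlapped, whereas the erf115ko arrays lay close together. The lowest ERF115OE array lay 0.0090 above the highest erf115ko array, a separation with ERF115OE higher that 9.58% of all probe sets showed. The fitted log2 fold change was 0.38 for ERF115OE over Col-0 (SE 0.20, adjusted p = 0.36) and 0.41 for ERF115OE over erf115ko (SE 0.20, adjusted p = 0.37). These sizes rested on single arrays. Without ERF115OE replicate 2 they were 0.17 and 0.21, and without ERF115OE replicate 1 they were 0.56 and 0.60. ERF115OE over Col-0 gave 0.20 without Col-0 replicate 2 and 0.57 without Col-0 replicate 3.

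IAA33, a divergent member reported to act in the distal stem cells of the root, had 4.26, 3.68 and 4.22 in ERF115OE. It had 4.33, 3.95 and 4.19 in erf115ko and 4.27, 4.11 and 4.12 in Col-0. Replicate 2 was the lowest array in each of the genotypes, and in ERF115OE it stood well apart from the other two. Over Col-0 the log2 fold change was -0.12 in ERF115OE (SE 0.15, adjusted p = 0.74) and -0.012 in erf115ko (SE 0.15). Without ERF115OE replicate 2 the value of ERF115OE was 0.069, on the other side of 0.

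IAA34, known with IAA32 from the apical hook, where a receptor kinase fragment stabilises both, had 3.03, 2.87 and 2.90 in ERF115OE. The values were 2.87, 2.87 and 2.90 in erf115ko and 2.84, 2.95 and 2.84 in Col-0. All 3 genotypes overlapped, and the log2 fold change over Col-0 was 0.058 in ERF115OE (SE 0.069, adjusted p = 0.71) and 0.0042 in erf115ko (SE 0.069).

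The GH3 genes encode acyl acid amido synthetases that lower free auxin, and the auxin-inducible ones among them are widely used as readouts of auxin response. GH3.1 had 3.39, 3.4 and 3.39 in ERF115OE, 3.28, 3.39 and 3.39 in erf115ko, and 3.39, 3.16 and 3.44 in Col-0. The ERF115OE arrays were nearly identical and fell inside the Col-0 range. ERF115OE differed from Col-0 by 0.066 (SE 0.081, adjusted p = 0.72) and erf115ko by 0.027 (SE 0.081) on the log2 scale.

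GH3.3 had 2.22, 2.37 and 2.37 in ERF115OE, 2.72, 2.37 and 2.41 in erf115ko, and 2.32, 2.69 and 2.37 in Col-0. A single array of erf115ko and a single array of Col-0 lay above the rest, and the groups shared values. ERF115OE over Col-0 came to -0.14 (SE 0.12, adjusted p = 0.58) and ERF115OE over erf115ko to -0.18 (SE 0.12, adjusted p = 0.51), the largest difference of a GH3 gene. Without Col-0 replicate 2 ERF115OE over Col-0 was -0.027, and without erf115ko replicate 1 ERF115OE over erf115ko was -0.071.

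GH3.5, an enzyme that also accepts salicylic acid, had 6.27, 6.03 and 6.07 in ERF115OE, 6.24, 6.09 and 6.09 in erf115ko, and 5.88, 6.09 and 6.09 in Col-0. Replicate 1 was the highest array of both lines and the lowest of Col-0. Relative to Col-0, ERF115OE stood at 0.11 (SE 0.090, adjusted p = 0.58) and erf115ko at 0.12 (SE 0.090, adjusted p = 0.9996) on the log2 scale. The lines with more and with less ERF115 by label thus stood on the same side of Col-0, neither beyond the spread. Both differences share the low Col-0 replicate 1. Without that array ERF115OE stood at 0.038 and erf115ko at 0.051.

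Several of these values were equal on more than 1 array in every deposited digit. For GH3.5 the value 6.09 was shared by 2 erf115ko and 2 Col-0 arrays, and for GH3.3 the value 2.37 was shared by 4 arrays over the 3 genotypes. IAA18, IAA20, IAA34 and GH3.1 each had 1 value on 3 arrays. Equal values on at least 3 arrays occurred in 25.4% of all probe sets and in 6 of the 10. On at least 2 arrays they occurred in 56.5% of all probe sets and in the same 6 of the 10. An SD over such arrays, as the 0.0056 of GH3.1 in ERF115OE, may understate the spread of the measurement, which was not tested.

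The genes were not unusually noisy as a set. The pooled within-genotype SD had a median of 0.11 over the 10 and of 0.11 over all probe sets. IAA31 was the exception at 0.31, with 98.9% of probe sets less variable, followed by IAA33 at 0.22, with 94.5% less variable. IAA30 and IAA34, at 0.061 and 0.065, were at the other end. Within ERF115OE, replicate 1 alone gave the highest value for 7 of the 10 genes and replicate 2 alone the lowest for 6. Only 2 of the 10, IAA18 and GH3.5, had a mean over all arrays at or above the median of all probe sets. Small differences are compressed at low RMA values, which touches the other 8. Values of different probe sets were not ranked against each other, since probes differ in their response.

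Set side by side, the comparisons centred on 0. ERF115OE over Col-0 had a median log2 fold change of -0.0087 over the 10 genes, with 5 above 0 and 5 below, against -0.025 over all probe sets. For erf115ko over Col-0 the median was 0.0043, with 6 above and 4 below 0, against 0.0021 over all probe sets. ERF115OE over erf115ko gave -0.045, with 4 above and 6 below 0, against -0.024 over all probe sets. By family, the 7 Aux/IAA genes had a median of -0.043 and the 3 GH3 genes of 0.066 in ERF115OE over Col-0, and no test was run on these medians. The median over the 10 genes turned with single arrays: for ERF115OE over Col-0 it was -0.071 without ERF115OE replicate 1 and 0.066 without ERF115OE replicate 2. The median size without regard to sign was 0.089 for the 10 genes and 0.094 for all probe sets in that comparison. In erf115ko over Col-0 it was 0.031 for the 10 genes and 0.060 for all probe sets. In ERF115OE over erf115ko it was 0.089 for the 10 genes and 0.087 for all probe sets. Each pair of comparisons shares the arrays of a genotype, so these values are not independent.

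**Figure D2:**
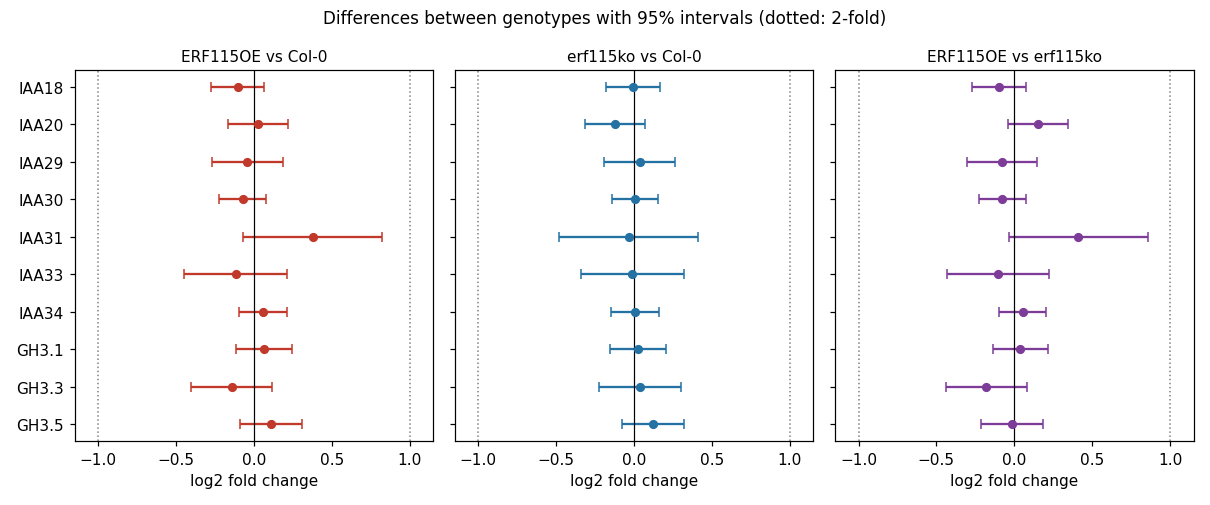
Log2 fold change of each gene in the 3 comparisons (points) with its 95% interval from the fit (bars), the first-named genotype over the second, and dotted lines at a 2-fold difference. Every interval includes 0 and none reaches the dotted lines; those of IAA31 are the widest.

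The intervals say how large a difference in RMA value these arrays leave room for. In all 3 comparisons the 95% intervals of all 10 genes included 0 and lay within -1 and 1, that is, within a 2-fold difference either way. Those of all 10 lay within -0.5 and 0.5 for erf115ko over Col-0. For ERF115OE over Col-0, and also over erf115ko, 9 of 10 did, the exception being IAA31, whose intervals reached 0.82 and 0.86. These are intervals gene by gene, not adjusted for their number. Except for IAA18 and GH3.5, the RMA values were low, where small differences are compressed. There an interval does not bound the change of the transcript itself. For scale, the log2 fold change was taken at which a gene, at its own SE, would match the largest p-value called. In ERF115OE over Col-0 it was 0.26 (IAA30) to 0.79 (IAA31). In erf115ko over Col-0, where 3 probe sets were called in all, it was 0.58 (IAA30) to 1.75 (IAA31). The limit of the adjustment lies at or above that p-value, so a somewhat smaller estimate could also have been called. These are sizes of the estimate, not limits on the true change of a transcript.

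**Figure D3:**
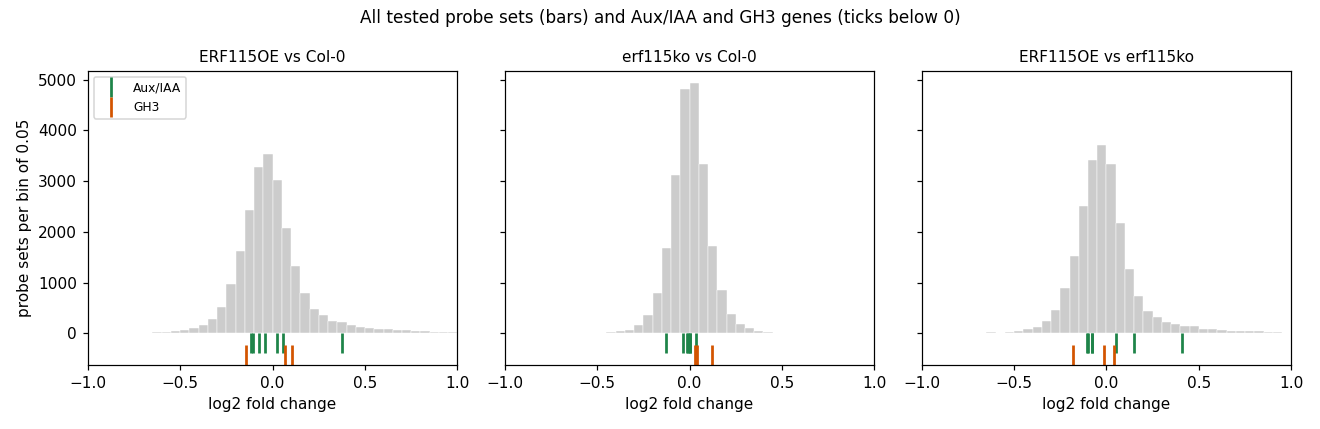
Log2 fold changes of all tested probe sets (grey bars, number per bin of 0.05) with the 7 Aux/IAA genes (green ticks) and the 3 GH3 genes (orange ticks) below the axis, for each comparison; probe sets beyond -1 or 1 are not drawn. The ticks sit in the central part of each distribution, with IAA31 at 0.38 and 0.41 on the right in the comparisons of ERF115OE over Col-0 and over erf115ko.

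The rest of the auxin pathway could be followed only in part. Of 73 further genes on 8 lists by role, 9 had a probe set of 1 gene: 3 of 12 synthesis genes, 4 of 7 further conjugation and breakdown genes, and 2 of 4 LBD genes. No TIR1/AFB receptor, ARF, TPL/TPR corepressor, auxin transporter or SAUR gene was analysed here. None of the 9 passed the threshold in any comparison (limma), and 1 in each comparison had an unadjusted p under 0.05, LBD16 in those of ERF115OE and YUC2 in erf115ko over Col-0. Of all probe sets, 18.2% had such a p in ERF115OE over Col-0, 4.54% in erf115ko over Col-0 and 15.6% in ERF115OE over erf115ko. In erf115ko over Col-0, YUC2 had an adjusted p of 0.9996 (limma). So 1 of 9 is no result about these genes in any of the comparisons.

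The closest to a call was LBD16, a transcription factor gene that ARF7 and ARF19 switch on when lateral roots start. Its values were 3.51, 3.64 and 3.72 in ERF115OE, 3.05, 3.1 and 3.45 in erf115ko, and 3.25, 3.44 and 3.4 in Col-0. Every ERF115OE array lay above every array of the other genotypes. Of all probe sets, 9.26% showed this against Col-0 and 9.58% against erf115ko. The share that showed it against both at once was not computed. Its level in ERF115OE was 0.42 above erf115ko (SE 0.11, adjusted p = 0.064, unadjusted p = 0.0028) and 0.26 above Col-0 (SE 0.11, adjusted p = 0.24) on the log2 scale. Without erf115ko replicate 3 the difference from erf115ko was 0.55 with an adjusted p of 0.023, and without erf115ko replicate 1 it was 0.35 with an adjusted p of 0.25. With any other array left out the adjusted p was 0.070 to 0.19. Its relative LBD29 had 2.69, 2.79 and 2.54 in ERF115OE, 2.66 on all 3 erf115ko arrays, and 2.64, 2.82 and 2.59 in Col-0. LBD29 stood at -0.0078 in ERF115OE (SE 0.084, adjusted p = 0.97) and -0.023 in erf115ko (SE 0.084) relative to Col-0.

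YUC2, a flavin monooxygenase of auxin synthesis, had 4.28, 4.26 and 4.09 in ERF115OE, 4.095, 4.28 and 3.93 in erf115ko, and 4.26, 4.52 and 4.37 in Col-0. Relative to Col-0 it stood at -0.17 in ERF115OE (SE 0.10, adjusted p = 0.42) and at -0.28 in erf115ko (SE 0.10, adjusted p = 0.9996, unadjusted p = 0.021). Both lines overlapped Col-0. YUC6, of the same family, stood at 0.0029 in ERF115OE (SE 0.12) and 0.18 in erf115ko (SE 0.12) over Col-0, and YUC4 at -0.057 in ERF115OE and -0.022 in erf115ko (SE 0.078 each).

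GH3.9, a root-expressed relative of the GH3 genes above, had 2.42, 2.46 and 2.54 in ERF115OE, 2.63, 2.32 and 2.20 in erf115ko, and 2.32, 2.26 and 2.31 in Col-0. ERF115OE lay above Col-0 on every array, by 0.17 on average (SE 0.10, adjusted p = 0.40). The share of all probe sets with ERF115OE above Col-0 on every array was 9.26%. GH3.17, which conjugates auxin to glutamate, had 8.03, 7.98 and 7.96 in ERF115OE, 7.97, 7.95 and 7.97 in erf115ko, and 7.84, 7.97 and 8.08 in Col-0. Its difference from Col-0 was 0.026 in ERF115OE and -0.0023 in erf115ko (SE 0.072 each). AT1G14130 stood at 0.22 (SE 0.11, adjusted p = 0.32) and UGT84B1, an auxin glucosyltransferase, at -0.020 (SE 0.12, adjusted p = 0.95) in ERF115OE over Col-0.

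**Figure D4:**
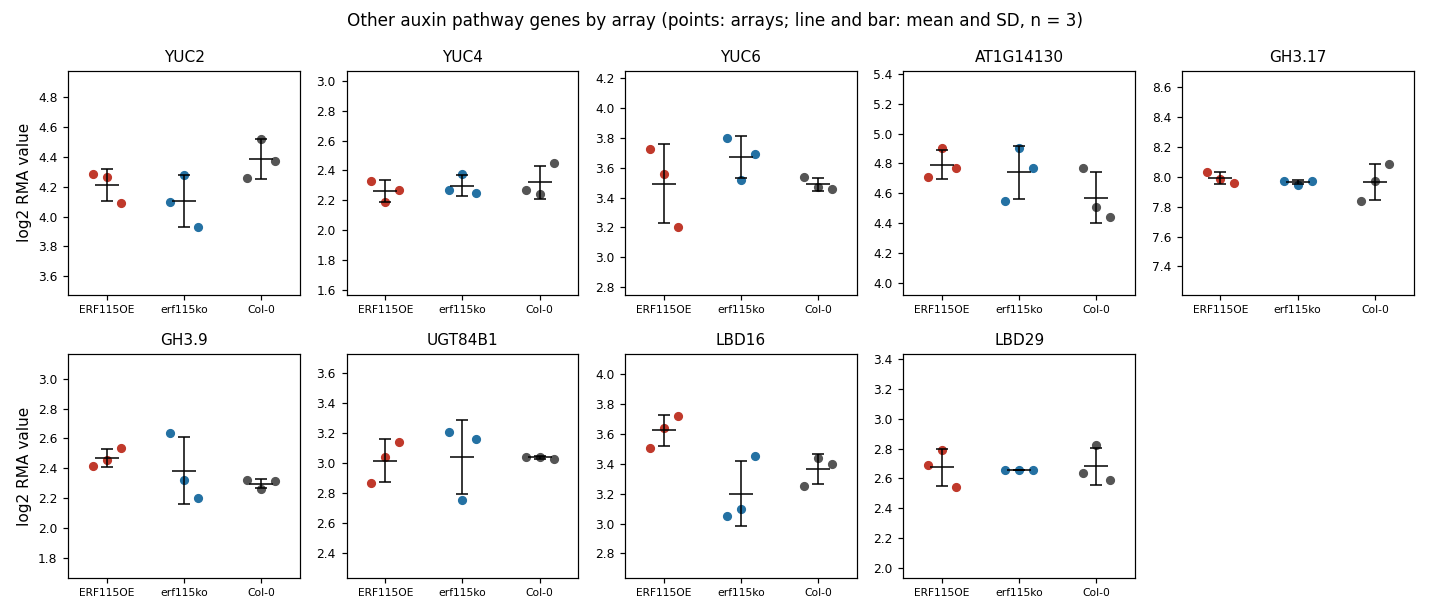
Values of the 9 further auxin genes on each array (log2 RMA value, every axis spanning 1.5 log2 units), with points for arrays and a line and bar for mean and SD of the 3 arrays of ERF115OE, erf115ko and Col-0. LBD16 is the panel in which all ERF115OE arrays lie above all others, and the 3 erf115ko arrays of LBD29 share 1 value.

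Facts of the whole series bear on these values as follows. Array medians lay between 5.04 and 5.13, and correlations across probe sets were 0.995 to 0.998 within a genotype and 0.990 to 0.996 between ERF115OE and the others. No probe set was named as ERF115, so the line labels were not checked against that gene. Of 29 markers of root and shoot cell types, 3 on 2 of 7 lists were measured, so the label of root tips could be checked only against the root hair expansins EXPA7 and EXPA18 and the leaf gene RCA. The summed log2 level of EXPA7 and EXPA18 was 17.5 to 18.0 in ERF115OE, 16.1 to 16.3 in erf115ko and 15.7 to 16.6 in Col-0, and RCA stood between 4.22 and 4.82 on all arrays. EXPA7 was higher in ERF115OE than in Col-0 by 0.81 on the log2 scale (limma, SE 0.083, adjusted p = 0.00044). Markers of meristem, root cap, endodermis, xylem and phloem were not analysed here, and the part of cell composition in the levels of the 10 genes was not tested.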

How the data were processed

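Expression in 9 root tip samples was measured on 1-colour Affymetrix arrays after 3' in vitro transcription labelling, per the labels' protocols. The authors deposited log2 values, which the submitters' processing notes credit to RMA in affy 1.36. RMA corrects background, equalises the distributions of arrays and summarises probes over all arrays, so a shift common to most transcripts is lost. The genome build is not given in the sources used here.

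Of 22810 probe sets, 64 controls were left out. Names came from the platform's probe table through gene IDs and the RefSeq table of TAIR10.1: 13513 probe sets have 1 gene (13436 matched), 503 have several and 8730 are unnamed here. The test was limma 3.58.1 (lmFit and eBayes in R 4.3.3) on all 9 arrays, with a mean for each genotype and a common spread (6 residual and 4.49 prior degrees of freedom). P-values were adjusted by Benjamini-Hochberg over 22746 probe sets at a threshold of 0.05. On simulated normal values the fit was checked for recovering the mean of added shifts, not for its calls. Levels are given per array, and the number of arrays limits precision.

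All genes with a probe set are named, with values per array for all 10 Aux/IAA and GH3 genes; of each further auxin list, the 2 genes with the smallest p have values under every alternative but the filters on low values, which leave them out. Members and lists were chosen with earlier results of these data known. Alternatives were other array scalings, filters on low values, a trended prior, array weights, fewer arrays and a replicate block. Protein and promoter motifs were not analysed here.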

Additional observations from a re-analysis of the deposited data

How the results depend on the processing

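Under 17 alternative settings, 9 of which leave out 1 array, no Aux/IAA or GH3 gene passed the threshold in any comparison: 0 of 459 values did, and the lowest adjusted p was 0.11 (IAA31, ERF115OE over erf115ko, array weights). The median log2 fold change over the 10 genes was not stable. It moved by more than its own SD between arrays (0.034) with median centring in ERF115OE over Col-0 (-0.044). That setting shifts all probe sets of a comparison alike, and the median over all of them went from -0.025 to -0.060. The filters also moved the median over the 10 genes, but only by changing which genes it covers. The filter at the median keeps only IAA18 and GH3.5 (0.057 in erf115ko over Col-0). The filter at 6 keeps GH3.5 alone (0.11 in ERF115OE and 0.12 in erf115ko, each over Col-0). With 1 array left out it was -0.071 to 0.066 for ERF115OE over Col-0, -0.027 to 0.032 for erf115ko over Col-0 and -0.099 to 0.035 for ERF115OE over erf115ko. Of the 30 log2 fold changes of single genes, 30 moved by over 1.5 times or turned with at least 1 array left out. Leaving out probe sets with shared probes changed nothing, as there were none. Signs of values near 0 were not stable: 35 of the 459 turned, by at most 0.16 from 0. With median centring, IAA20 (-0.0096) and YUC6 (-0.033) in ERF115OE and IAA30 (-0.022) and IAA34 (-0.023) in erf115ko, each over Col-0, turned. These turns came with the shift common to all probe sets. In erf115ko over Col-0 their median went from 0.0021 to -0.025. Quantile normalization turned IAA20 (-0.017) and LBD29 (0.037) in ERF115OE over Col-0. Array weights turned IAA20 (-0.0078) and YUC6 (-0.14) in ERF115OE over Col-0, IAA18 (0.012), IAA31 (0.016) and GH3.3 (-0.013) in erf115ko over Col-0, and LBD29 (-0.040) in ERF115OE over erf115ko.

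With 1 array left out, the values that turned had the following ranges. In ERF115OE over Col-0 these were IAA20 -0.053 to 0.076, IAA29 -0.14 to 0.051, IAA33 -0.22 to 0.069, GH3.1 -0.019 to 0.12, YUC6 -0.11 to 0.15 and LBD29 -0.064 to 0.063. In erf115ko over Col-0 they were IAA18 -0.052 to 0.065, IAA29 -0.059 to 0.13, IAA30 -0.026 to 0.043, IAA31 -0.21 to 0.16, IAA33 -0.10 to 0.092, IAA34 -0.015 to 0.042, GH3.1 -0.059 to 0.082, GH3.3 -0.071 to 0.15, GH3.9 -0.039 to 0.18 and LBD29 -0.070 to 0.047. In ERF115OE over erf115ko they were IAA33 -0.21 to 0.082, GH3.5 -0.088 to 0.038, GH3.9 -0.0060 to 0.21, AT1G14130 -0.043 to 0.13 and LBD29 -0.041 to 0.080.

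Of the 9 further auxin genes, 0 passed in ERF115OE over erf115ko, and with 1 array left out 0 to 1 did: LBD16, without erf115ko replicate 3. With the replicate number as a block, 1 did, again LBD16 (adjusted p = 0.032), and no other call of these auxin genes changed. Over all alternatives its adjusted p was 0.023 to 0.25. The replicate numbers did not pair the samples throughout: deviations of same-numbered arrays correlated at -0.21 to 0.14, over 0.1 for 2 of 9 pairs. In 4 of 9 cases an array correlated best with its own number. All erf115ko arrays did so against Col-0, at 0.14, 0.12 and 0.096. Calls over all probe sets, which set the adjusted p, numbered 1241, 3 and 837 in the order of comparisons above. For ERF115OE over Col-0 they were 792 without Col-0 replicate 1, 810 without Col-0 replicate 2 and 807 with only the 6 arrays compared, and for ERF115OE over erf115ko 1762 with array weights, 355 and 374 without erf115ko replicates 1 and 3, and 501 and 488 without ERF115OE replicates 2 and 3. For erf115ko over Col-0 they lay between 0 and 10. The cause of these shifts was not tested.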
